A study of Canis lupus familiaris with 9 samples.

Results

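The contractile and actin cytoskeleton genes are a group of 47 genes that encode the actin, myosin, tropomyosin and calponin isoforms of contractile cells, the proteins that tie actin filaments to focal adhesions, and the transcription factor SRF with its cofactors. Members were taken from a named list, and each was kept if a probe set of the array carried its symbol alone. On this basis 42 of the 47 genes were measured, out of 15947 named genes in all, each by 1 probe set. The probe sets of MYL9, MYL6 and TPM3 carried a second symbol (MYL12B, MYL6B and TPM1), so these 3 genes have no value of their own, and LPP and CSRP2 were not matched by symbol and are not analysed here. The 42 genes were split into 15 smooth muscle contractile genes, 15 adhesion and linker genes and 6 widely expressed isoforms of the contractile proteins. The other 6 were SRF, its cofactors and LIM protein partners, called SRF and cofactors below.

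RNA from primary cultures of dog cells was measured on 9 Affymetrix arrays. The 3 SKN arrays hold neural precursors grown from skin, kept free of serum with epidermal growth factor (EGF, 20 ng/mL), β-FGF (40 ng/mL) and B-27 (2%), and started as spheres. The 3 Brain arrays hold neural precursors derived from brain, for which the labels used here name no medium. The 3 Fibroblast arrays hold skin fibroblasts kept in 10% fetal bovine serum. The skin was surplus tissue from dogs at routine surgery, and no culture was treated before RNA extraction. Medium and cell type changed together between SKN and Fibroblast and cannot be told apart there, and with the Brain medium unknown they cannot be told apart in the other comparisons either. Which dog or culture stood behind each array is not stated, so the p-values measure only the spread between these arrays.

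Smooth muscle cells and activated fibroblasts contract by sliding myosin along actin filaments, and tropomyosin, caldesmon and calponin on the filament regulate that movement. The filaments end in focal adhesions, where talin, vinculin, paxillin, zyxin and α-actinin connect them to integrins. Many of these genes carry binding sites for serum response factor (SRF), which works with myocardin in smooth muscle and with the myocardin-related factors MRTFA and MRTFB in many other cells. MRTFs are held in the cytoplasm by free actin monomers and move to the nucleus when actin is driven into filaments. Serum and stiff attachment are textbook activators of this route in cultured fibroblasts.

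Arrays were similar in overall scale, with medians of 4.71 to 4.79 log2 units, and arrays of 1 group correlated across probe sets at 0.978 to 0.985. Marker genes were read beside the labels. The mean of 11 measured fibroblast markers lay at 10.65 to 10.79 log2 units in SKN, at 4.09 to 5.53 in Brain and at 10.19 to 10.46 in Fibroblast. In SKN minus Fibroblast 1 of the 11 was called, DPT, dermatopontin, higher by 2.79 ± 0.36 (adjusted p = 0.00604), and 3 had an unadjusted p under 0.05, while all 11 were called lower in Brain than in Fibroblast. Of 8 measured neural precursor markers only NES, an intermediate filament of precursors, was called between Brain and Fibroblast (1.68 ± 0.23 log2 units higher in Brain, adjusted p = 0.00155), and NES read 6.29 to 6.89 in SKN, against 6.48 to 6.86 in Fibroblast. The mean of 7 Schwann cell and neural crest markers lay at 4.32 to 4.41 in SKN, at 8.24 to 8.57 in Brain and at 4.38 to 5.67 in Fibroblast, with Fibroblast 1 highest of its group. The mean of 5 astrocyte markers lay at 4.42 to 4.62 in SKN, at 4.25 to 4.48 in Brain and at 4.15 to 4.36 in Fibroblast. In SKN minus Brain 2 of these were higher, ALDH1L1 by 1.23 and SLC1A3 by 2.54 log2 units, and 1 was lower, AQP4 by -2.44 (adjusted p = 0.00111). GFAP, the astrocyte filament, was not called. The group names below are those of the labels, and in bulk RNA fewer cells of a type and less RNA per cell cannot be told apart.

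The contractile program was lowest in Brain and highest in Fibroblast, with SKN between them, and the differences were largest for the smooth muscle genes. Members and classes were chosen with earlier results of these data known, so comparisons between classes and with all named genes are descriptive. In Brain minus Fibroblast 25 of the 42 genes were lower and 3 higher (66.7% called), where called means an adjusted p under 0.05 in limma. Among all named genes 27% were called there, 13.2% lower and 13.8% higher. In SKN minus Brain 14 genes were higher and 3 lower (40.5%), beside 22.6% of all named genes, with 10.9% higher and 11.7% lower. In SKN minus Fibroblast 7 genes were lower and 0 higher (16.7%), beside 4.55% of all named genes, with 2.10% lower and 2.45% higher. The median log2 difference over the 42 genes was -0.98 in Brain minus Fibroblast, 0.54 in SKN minus Brain and -0.56 in SKN minus Fibroblast, whereas the medians over all named genes were -0.06, 0.01 and -0.04. These comparisons share arrays, so they are not independent of each other. Group means ran in the order Brain, SKN, Fibroblast from low to high for 27 of the 42 genes (64.3%), against 26.8% of all named genes. For 14 of the 42 genes (33.3%) the arrays of the 3 groups did not overlap in that order, against 3.00% of all named genes.

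**Figure D1:**
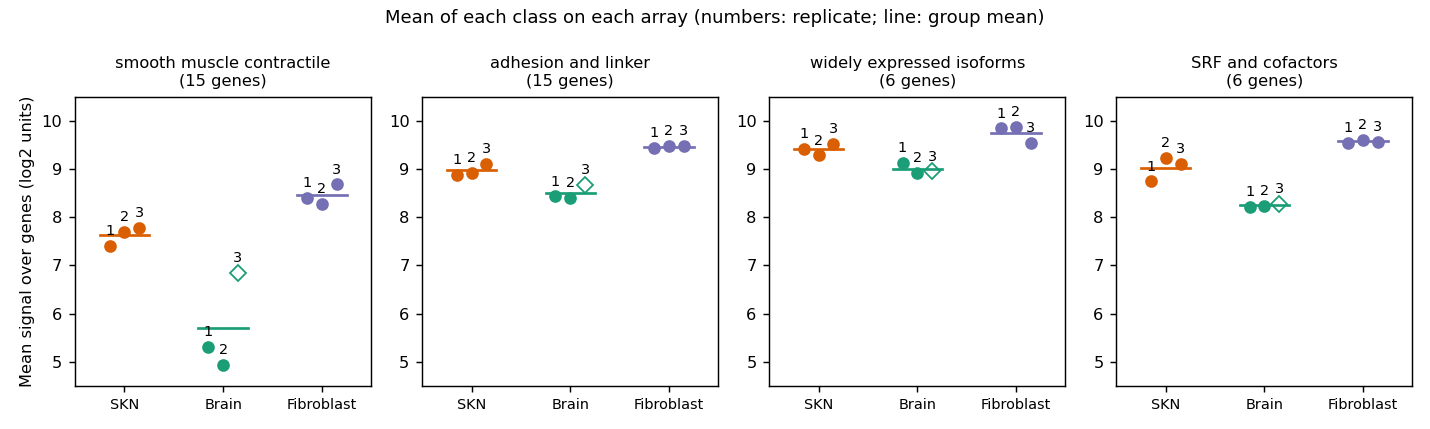
Mean log2 value of the measured genes of each class on every array, with SKN left of Brain and Brain left of Fibroblast; each point is 1 array. The smooth muscle contractile mean lies at 7.40 to 7.77 in SKN, at 4.94 and 5.31 in Brain 1 and Brain 2 and 6.85 in Brain 3, and at 8.28 to 8.68 in Fibroblast. The other classes spread less among the Brain arrays, while in SKN the mean of SRF and cofactors spans 8.74 to 9.22.

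The plot of class means per array shows how the classes differed in size. The mean of the 15 smooth muscle genes was 7.62 ± 0.20 log2 units in SKN, 5.70 ± 1.01 in Brain and 8.45 ± 0.21 in Fibroblast (SD, n = 3 each). The mean of the 15 adhesion and linker genes was 8.97 ± 0.11 in SKN, 8.50 ± 0.14 in Brain and 9.47 ± 0.03 in Fibroblast. The spread of the smooth muscle mean among the Brain arrays came from Brain 3, which read 6.85 where Brain 1 read 5.31 and Brain 2 read 4.94. The median within-group SD of a smooth muscle gene was 0.39 log2 units in SKN, 0.83 in Brain and 0.16 in Fibroblast, and over all named genes it was 0.15, 0.17 and 0.16 in the same groups. Brain 3 is described apart below, and where a named gene's call ended or began without it, this is stated with the gene.

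**Figure D2:**
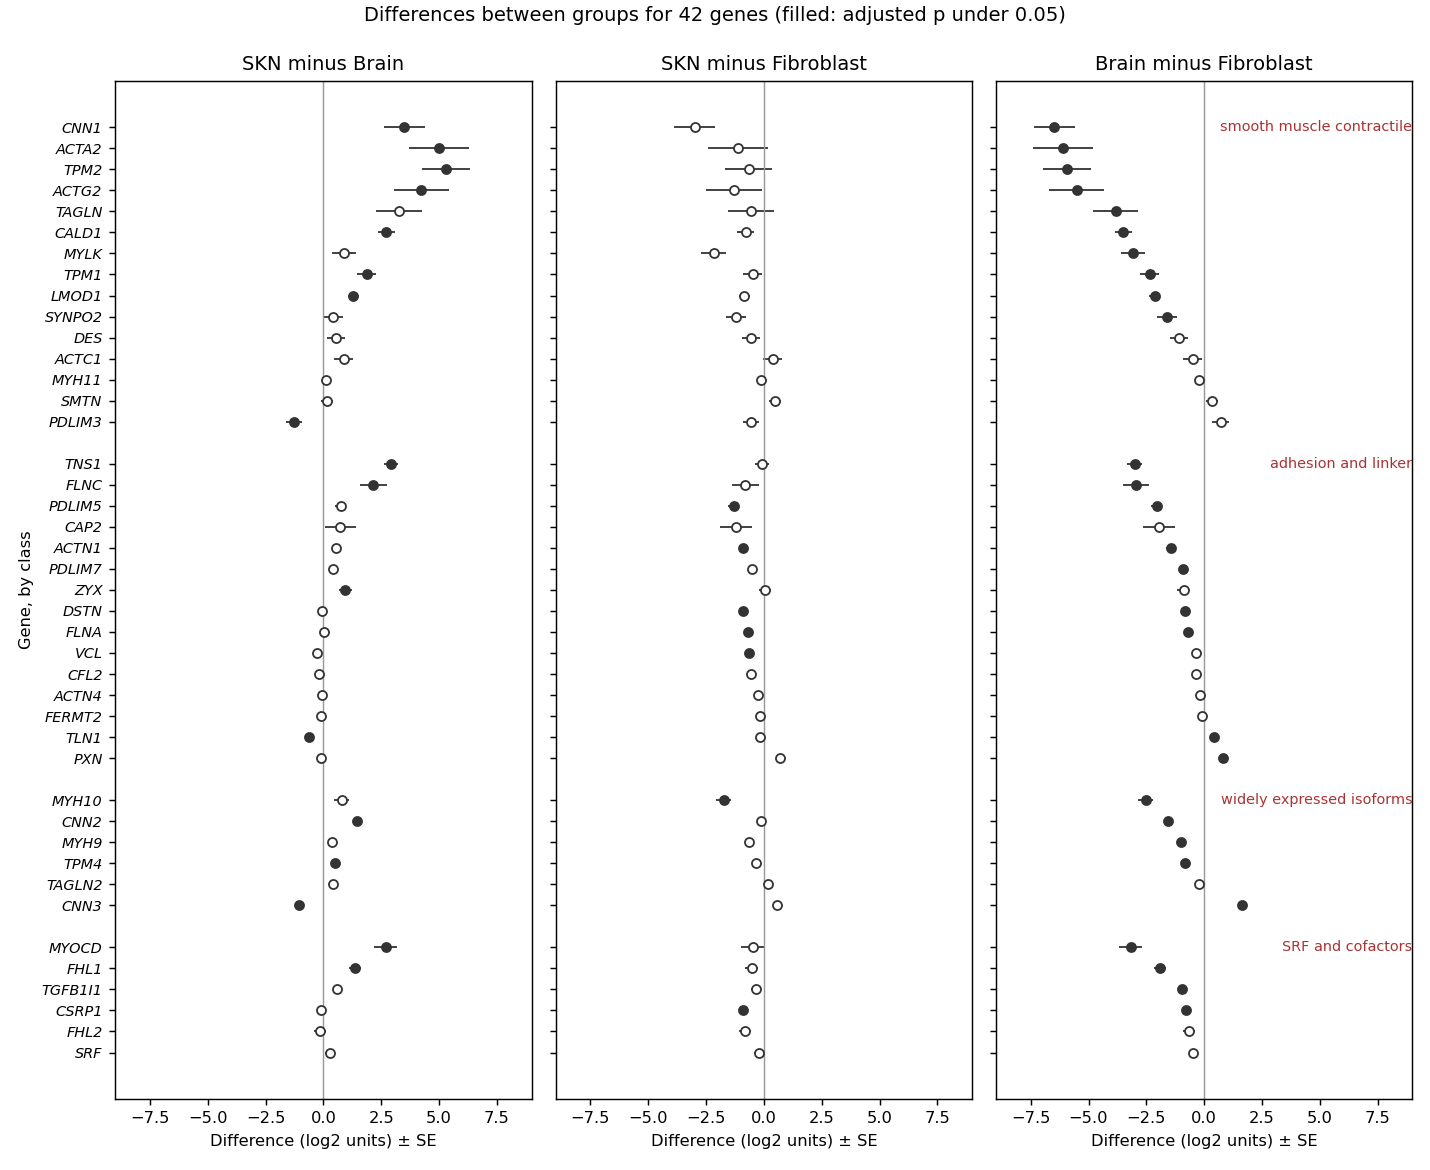
Log2 difference of each of the 42 genes in SKN minus Brain, SKN minus Fibroblast and Brain minus Fibroblast, with the standard error of the fit, genes grouped by class; filled points have an adjusted p under 0.05. The points of the smooth muscle genes reach 5.28 in SKN minus Brain and -6.49 in Brain minus Fibroblast, and none of them is filled in SKN minus Fibroblast.

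Among the smooth muscle contractile genes, 10 of 15 were lower in Brain than in Fibroblast and 0 were higher (66.7% called). Of all named genes 27% were called there, and the median difference over the 15 genes was -2.36 log2 units. The 5 largest differences belonged to CNN1, ACTA2, TPM2, ACTG2 and TAGLN, which read near the top of the array's range in every Fibroblast array. ACTA2 encodes smooth muscle α-actin, the usual marker of smooth muscle cells and myofibroblasts. Its log2 values were 10.49, 10.83 and 11.27 in SKN 1 to 3, 4.19, 3.85 and 9.59 in Brain 1 to 3, and 11.91, 11.97 and 12.04 in Fibroblast 1 to 3. The groups did not overlap, and Brain 3 lay more than 5 log2 units above the other Brain arrays. ACTA2 was lower in Brain than in Fibroblast by -6.10 ± 1.29 log2 units (adjusted p = 0.0118), and without Brain 3 by -7.95 (adjusted p = 2.84e-06). It was higher in SKN than in Brain by 4.99 ± 1.29 (adjusted p = 0.032), a call that ended with the removal of any array other than Brain 3 (adjusted p from 0.0521 to 0.1), while without Brain 3 the difference was 6.84 (adjusted p = 5.32e-06). Without Brain 2 the differences were -5.08 and 3.98.

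CNN1, calponin of smooth muscle, binds actin and slows the myosin ATPase. It read 7.72, 9.85 and 9.25 in SKN, 4.01, 4.69 and 7.62 in Brain, and 11.83, 11.98 and 11.98 in Fibroblast. SKN values lay between the other groups, SKN 1 close to Brain 3. Brain was lower than Fibroblast by -6.49 ± 0.88 (adjusted p = 0.00152), the largest difference of the 42 genes, and -7.58 without Brain 3. SKN was higher than Brain by 3.50 ± 0.88 (adjusted p = 0.0288), but that call ended without SKN 2, SKN 3, Brain 1 or Brain 2 (adjusted p from 0.0816 to 0.0984), and the difference was 4.59 without Brain 3 and 2.78 without Brain 1. Without Brain 1 the Brain minus Fibroblast difference was -5.77.

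TPM2, β-tropomyosin, lies along the actin groove. Its values were 11.11, 11.16 and 11.48 in SKN, 4.36, 4.61 and 8.95 in Brain, and 11.95, 11.89 and 11.91 in Fibroblast. SKN and Fibroblast stood less than 1 log2 unit apart, and Brain 1 and Brain 2 lay far below both. TPM2 was lower in Brain than in Fibroblast by -5.94 ± 1.03 (adjusted p = 0.00481) and higher in SKN than in Brain by 5.28 ± 1.03 (adjusted p = 0.00934). Without Brain 3 the differences were -7.43 and 6.77. Both calls were kept in each of the 9 removals of 1 array, with differences down to -5.14 and 4.47 without Brain 1. In the dog reference table TPM2 and TLN1 are neighbours with 0 protein-coding genes between them. TLN1, described with the adhesion genes, differed in the opposite direction.

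ACTG2 encodes the γ-actin of visceral smooth muscle. It read 9.57, 10.80 and 10.62 in SKN, 5.01, 3.86 and 9.43 in Brain, and 11.60, 11.67 and 11.58 in Fibroblast. The pattern was that of ACTA2, with Brain 3 just below the lowest SKN array. Brain was lower than Fibroblast by -5.51 ± 1.20 (adjusted p = 0.0133), and by -7.18 without Brain 3. SKN was higher than Brain by 4.23 ± 1.20 (adjusted p = 0.0459), again called in the absence of Brain 3 and in no other removal (adjusted p from 0.0689 to 0.132 in the other 8), where it was 5.90 (adjusted p = 0.000183). Without Brain 2 the differences were -4.39 and 3.11. Muscle actin genes are close copies of each other, and how far the probe sets of ACTA2, ACTG2 and ACTC1 share signal was not tested.

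TAGLN, also called SM22α, is an actin-bundling protein of smooth muscle and a widely used SRF target. It read 10.95, 11.15 and 11.67 in SKN, 9.36, 5.21 and 9.43 in Brain, and 11.90, 11.72 and 11.83 in Fibroblast. Here Brain 1 was as high as Brain 3, and Brain 2 alone was low. TAGLN was lower in Brain than in Fibroblast by -3.82 ± 0.98 (adjusted p = 0.026), a call that ended without Fibroblast 1, 2 or 3 (adjusted p from 0.0683 to 0.0706). In SKN minus Brain the difference was 3.26 ± 0.98 and was not called (adjusted p = 0.056). It was called in 3 of the 9 removals of 1 array, with a lowest adjusted p of 0.00158. One of these was the removal of Brain 3, where the difference was 3.97 (adjusted p = 0.0426). Without Brain 2, the low array, the differences were smaller, at -2.42 in Brain minus Fibroblast (adjusted p = 0.000622) and 1.87 in SKN minus Brain. Without Brain 3 and without Brain 1 the first was -4.53 and -4.50.

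Caldesmon and leiomodin separated the 3 groups with less spread. CALD1, which blocks myosin from actin until calcium rises, read 10.61, 10.76 and 11.03 in SKN, 7.72, 7.50 and 9.04 in Brain, and 11.47, 11.51 and 11.76 in Fibroblast. It was lower in Brain than in Fibroblast by -3.49 ± 0.36 (adjusted p = 0.000386) and higher in SKN than in Brain by 2.71 ± 0.36 (adjusted p = 0.00134). LMOD1, a leiomodin that starts new actin filaments in smooth muscle, read 7.47, 7.59 and 8.15 in SKN, 6.05, 6.47 and 6.82 in Brain, and 8.29, 8.66 and 8.79 in Fibroblast. LMOD1 was lower in Brain than in Fibroblast by -2.14 ± 0.25 (adjusted p = 0.000705) and higher in SKN than in Brain by 1.29 ± 0.25 (adjusted p = 0.00866). All 4 calls held in every removal of 1 array.

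TPM1, MYLK and SYNPO2 completed the genes that were lower in Brain than in Fibroblast. TPM1, α-tropomyosin, read 11.09, 11.34 and 11.60 in SKN, 9.19, 8.64 and 10.58 in Brain, and 11.79, 11.79 and 11.91 in Fibroblast. The Brain minus Fibroblast difference was -2.36 ± 0.42 (adjusted p = 0.0054), and the SKN minus Brain difference was 1.87 ± 0.42 (adjusted p = 0.0176) with a call that ended without SKN 2, SKN 3 or Brain 1 (adjusted p from 0.0533 to 0.0666). MYLK, the kinase that switches myosin on, was lower in Brain than in Fibroblast by -3.07 ± 0.52 (adjusted p = 0.00425). SYNPO2, an actin-bundling protein of muscle, was lower by -1.61 ± 0.43 (adjusted p = 0.0308), a call that ended without Brain 1, Brain 2, Brain 3, Fibroblast 1 or Fibroblast 3 (adjusted p from 0.0747 to 0.0798, with 0.0794 without Brain 3).

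**Figure D3:**
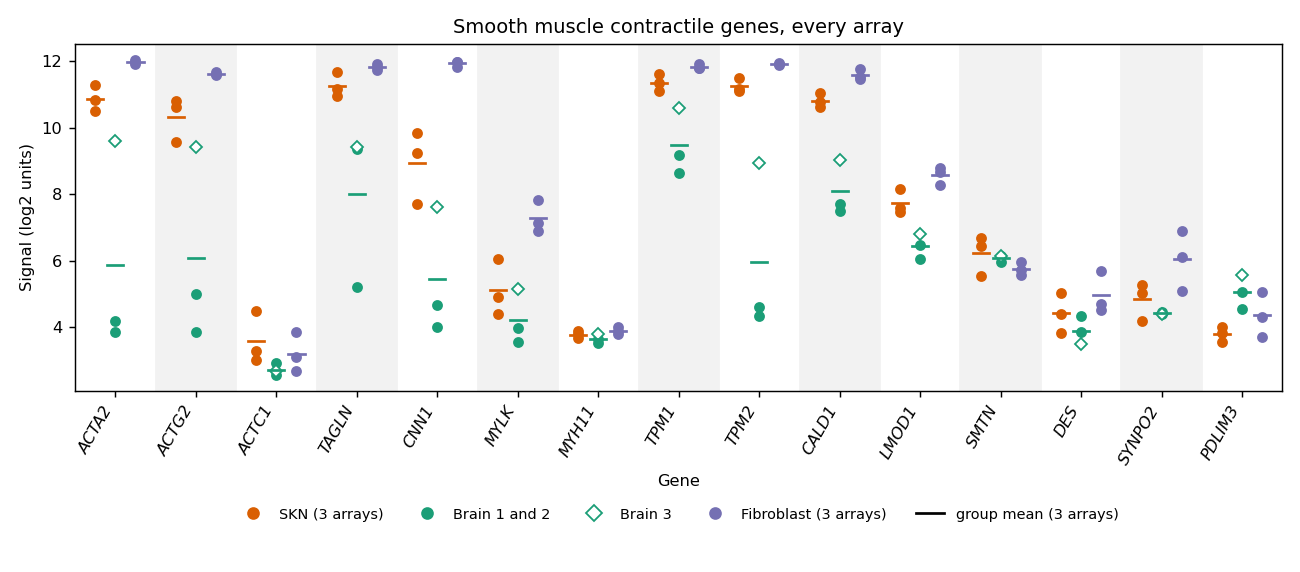
Log2 values of the 15 smooth muscle contractile genes on each of the 9 arrays, SKN left, Brain in the middle and Fibroblast right of each gene, with Brain 3 drawn apart from Brain 1 and Brain 2; the short lines are group means. For ACTA2, Brain 3 reads 9.59 and the other Brain arrays 4.19 and 3.85, while MYH11 lies between 3.52 and 4.02 on all arrays.

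Not all smooth muscle genes took part, as the plot of contractile values by array shows. MYH11, the myosin heavy chain of differentiated smooth muscle, read 3.80, 3.68 and 3.89 in SKN, 3.66, 3.52 and 3.80 in Brain, and 3.80, 4.02 and 3.88 in Fibroblast. These low readings overlapped between all groups, and no comparison of MYH11 was called (adjusted p = 0.189 in Brain minus Fibroblast). DES, the intermediate filament desmin, read 4.41, 5.05 and 3.83 in SKN, 3.85, 4.35 and 3.49 in Brain, and 4.53, 4.72 and 5.69 in Fibroblast. Its Brain minus Fibroblast difference of -1.09 ± 0.40 was not called (adjusted p = 0.0904). ACTC1, cardiac α-actin, read 2.58 to 4.51 over the 9 arrays and SMTN, smoothelin, 5.56 to 6.69, and neither was called in any comparison. The deposited table holds no detection calls, so these low readings leave expression below the array's reach possible.

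PDLIM3, a LIM protein that binds α-actinin, was the single smooth muscle gene that was lower in SKN than in Brain. It read 4.02, 3.57 and 3.83 in SKN, 5.08, 4.57 and 5.58 in Brain, and 5.07, 3.70 and 4.32 in Fibroblast. SKN and Brain did not overlap, while Fibroblast spanned both. The difference of -1.27 ± 0.36 (adjusted p = 0.045) was no longer called without SKN 1, SKN 2, SKN 3, Brain 1, Brain 3 or Fibroblast 3 (adjusted p from 0.0689 to 0.137), and was -1.02 without Brain 3. Altogether 7 of the 15 genes were higher in SKN than in Brain and 1 lower (53.3% called). Of all named genes 22.6% were called there, and the median over the 15 genes was 1.29 log2 units. Without Brain 3 the counts were 8 higher and 0 lower, with a median of 1.48, and of all named genes 17.2% were called in that fit, 8.62% higher and 8.56% lower.

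In SKN minus Fibroblast 0 of the 15 smooth muscle genes were called by limma over all 9 arrays, beside 4.55% of all named genes. The median of the 15 genes was -0.66 log2 units. Before adjustment 4 of them had a p under 0.05. The arrays of SKN nevertheless lay wholly below those of Fibroblast for 9 of the 15 genes, ACTA2, ACTG2, TAGLN, CNN1, MYLK, TPM1, TPM2, CALD1 and LMOD1, beside 15.0% of all named genes in that direction. The fit pools the spread of the 3 groups, and the SE of ACTA2 was 1.29 log2 units with Brain 3 and 0.20 without it, beside a SKN minus Fibroblast difference of -1.11. Without Brain 3, 5 genes were lower in SKN than in Fibroblast, beside 1.87% of all named genes lower and 3.80% called in that fit. These were CNN1 by -2.99 (adjusted p = 0.0261, against 0.121 with Brain 3), MYLK by -2.18 (0.0488 against 0.0647), ACTA2 by -1.11 (0.038 against 0.722), CALD1 by -0.78 (0.0423 against 0.323) and TPM2 by -0.66 (0.048 against 0.801). With the Brain group left out of the fit 1 gene was called, CNN1 (adjusted p = 0.0461), beside 496 of the 15947 named genes.

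The adhesion and linker genes showed smaller and mixed differences, with 7 of 15 lower and 2 higher in Brain than in Fibroblast and a median of -0.84 log2 units. In that comparison 60% of them were called, beside 27% of all named genes. TNS1, tensin, which couples actin to integrin tails, differed most. Its values were 9.61, 9.59 and 9.78 in SKN, 6.18, 6.46 and 7.58 in Brain, and 9.66, 9.70 and 9.88 in Fibroblast. SKN and Fibroblast overlapped and Brain lay below both. TNS1 was lower in Brain than in Fibroblast by -3.01 ± 0.31 (adjusted p = 0.000408) and higher in SKN than in Brain by 2.93 ± 0.31 (adjusted p = 0.00044), both in every removal of 1 array. The SKN minus Fibroblast difference was -0.08 ± 0.31 (adjusted p = 0.928).

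FLNC, the filamin of muscle, crosslinks actin at the Z-disc and at adhesions. It read 8.33, 8.72 and 8.68 in SKN, 7.64, 4.93 and 6.72 in Brain, and 9.15, 9.78 and 9.22 in Fibroblast. The Brain arrays were spread over more than 2 log2 units, Brain 2 lowest, and the 3 groups did not overlap. Brain was lower than Fibroblast by -2.95 ± 0.58 (adjusted p = 0.00819). SKN was higher than Brain by 2.15 ± 0.58 (adjusted p = 0.0371), a call kept without Brain 1 or Brain 2 and lost without any of the other 7 arrays (adjusted p from 0.0545 to 0.107). It was 2.29 without Brain 3, and without the low Brain 2 it was 1.40, where the Brain minus Fibroblast difference was -2.20. FLNA, the filamin of most cells, read 9.56, 9.42 and 9.65 in SKN, 9.65, 9.49 and 9.45 in Brain, and 10.30, 10.36 and 10.06 in Fibroblast. FLNA thus did not separate SKN from Brain, and it was lower in Brain than in Fibroblast by -0.71 ± 0.12 (adjusted p = 0.0041).

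PDLIM5, ACTN1 and PDLIM7 were highest in Fibroblast. PDLIM5, a LIM protein of stress fibres, read 8.80, 9.43 and 9.54 in SKN, 8.52, 8.20 and 8.82 in Brain, and 10.49, 10.44 and 10.78 in Fibroblast. It was lower in Brain than in Fibroblast by -2.06 ± 0.23 (adjusted p = 0.00056) and lower in SKN than in Fibroblast by -1.31 ± 0.23 (adjusted p = 0.0198). The second call ended without Fibroblast 1, 2 or 3 (adjusted p from 0.0501 to 0.0791). ACTN1, the α-actinin that crosslinks stress fibres, read 10.30, 10.68 and 10.84 in SKN, 10.44, 9.93 and 9.82 in Brain, and 11.50, 11.49 and 11.54 in Fibroblast. ACTN1 was lower in Brain than in Fibroblast by -1.45 ± 0.19 (adjusted p = 0.00127). Its SKN minus Fibroblast difference of -0.90 ± 0.19 (adjusted p = 0.0423) was called without Brain 1 and lost in each of the other 8 removals (adjusted p from 0.0511, without Brain 3, to 0.127), and it was lost with each array centred on its median (adjusted p = 0.051). PDLIM7, a LIM adaptor of actin filaments, read 6.18, 6.32 and 6.39 in SKN, 6.12, 5.80 and 5.70 in Brain, and 6.77, 6.82 and 6.81 in Fibroblast, and was lower in Brain than in Fibroblast by -0.93 ± 0.13 (adjusted p = 0.00152).

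Actin turnover and vinculin gave further differences against Fibroblast. DSTN, destrin, which severs filaments, read 10.13, 10.67 and 10.55 in SKN, 10.32, 10.59 and 10.60 in Brain, and 11.50, 11.27 and 11.26 in Fibroblast. DSTN was lower than in Fibroblast both in Brain, by -0.84 ± 0.16 (adjusted p = 0.00768), and in SKN, by -0.89 ± 0.16 (adjusted p = 0.0231). VCL, vinculin, read 9.35, 9.18 and 9.37 in SKN, 9.29, 9.64 and 9.77 in Brain, and 9.86, 9.99 and 9.94 in Fibroblast, and was lower in SKN than in Fibroblast by -0.63 ± 0.14 (adjusted p = 0.0448). FLNA was likewise lower in SKN than in Fibroblast, by -0.70 ± 0.12 (adjusted p = 0.0186). The SKN minus Fibroblast calls ended for DSTN without SKN 1, SKN 3 or any Fibroblast array (adjusted p up to 0.071), for FLNA without SKN 1, SKN 2, Fibroblast 1 or Fibroblast 2 (up to 0.0622), and for VCL without any array but Brain 1 and Brain 3 (up to 0.127).

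TLN1, PXN and ZYX ran differently. TLN1, talin, which activates integrins, read 8.52, 8.42 and 8.41 in SKN, 9.29, 9.05 and 8.91 in Brain, and 8.70, 8.75 and 8.47 in Fibroblast. Talin was lower in SKN than in Brain by -0.63 ± 0.13 (adjusted p = 0.0111) in every removal, and higher in Brain than in Fibroblast by 0.44 ± 0.13 (adjusted p = 0.0415), a call kept in the removal of Brain 3 alone (adjusted p from 0.0567 to 0.118 in the other 8). PXN, paxillin, an adhesion scaffold, read 7.55, 7.65 and 7.85 in SKN, 7.89, 7.73 and 7.76 in Brain, and 7.35, 6.88 and 6.66 in Fibroblast, and was higher in Brain than in Fibroblast by 0.83 ± 0.18 (adjusted p = 0.0118). ZYX, zyxin, which moves to stretched stress fibres, read 8.30, 7.27 and 7.87 in SKN, 6.49, 6.97 and 7.14 in Brain, and 7.55, 7.98 and 7.75 in Fibroblast. Zyxin was higher in SKN than in Brain by 0.94 ± 0.27 (adjusted p = 0.0495), but kept that call in 1 of the 9 removals, that of SKN 2 (adjusted p from 0.0619 to 0.14 in the other 8), and was 1.08 without Brain 3.

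ACTN4, FERMT2, CAP2 and CFL2 passed the threshold in no comparison. FERMT2, kindlin-2, an integrin activator, read 9.73 to 9.89 in SKN, 9.84 to 9.94 in Brain and 9.94 to 9.99 in Fibroblast, the narrowest span of the adhesion genes. CAP2, an actin monomer recycling protein, read 6.62 to 7.22 in SKN, 4.31, 6.99 and 7.24 in Brain 1 to 3, and 7.81 to 8.66 in Fibroblast. The Brain arrays of CAP2 split differently from those of ACTA2, with Brain 1 low and Brain 2 beside Brain 3. In all, 3 of the 15 adhesion and linker genes were higher and 1 lower in SKN than in Brain (26.7% called, near the 22.6% of all named genes, with a median of 0.01 log2 units), and 5 were lower and 0 higher in SKN than in Fibroblast (33.3% called beside 4.55% of all named genes, median -0.57).

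**Figure D4:**
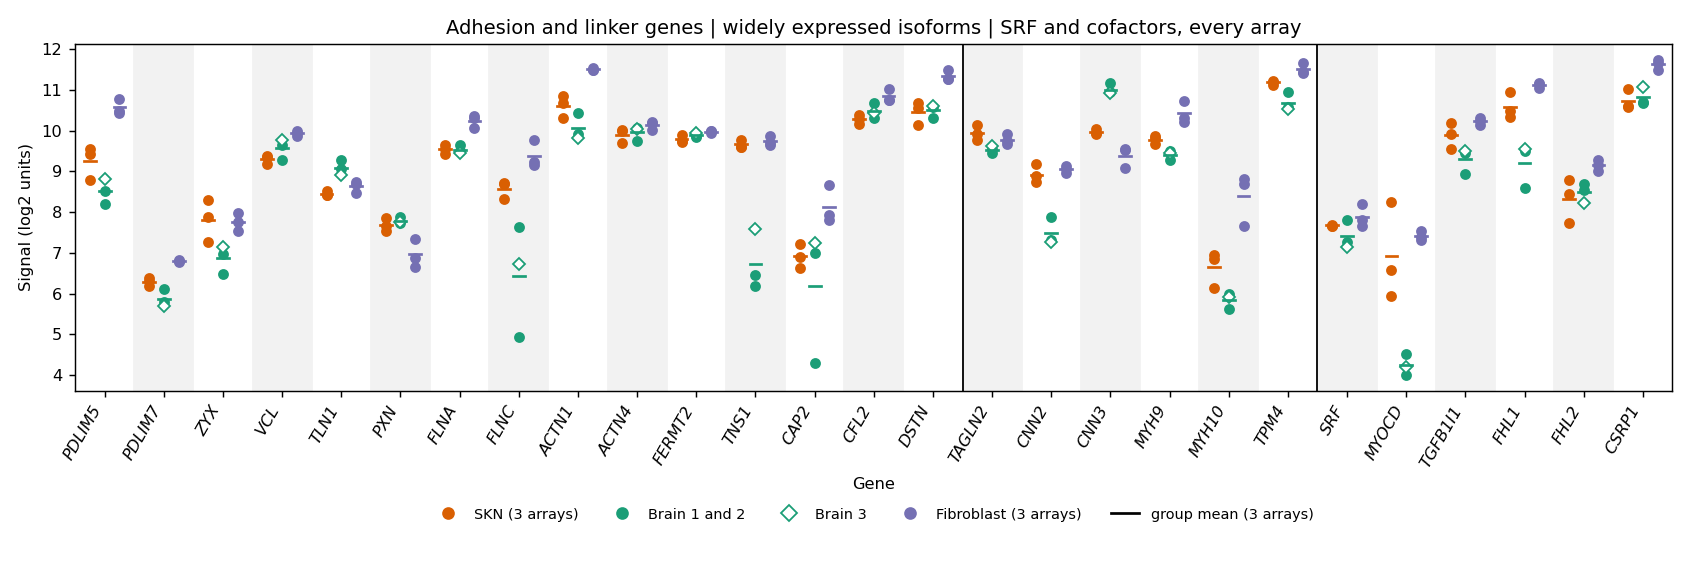
Log2 values of the 27 adhesion and linker genes, widely expressed isoforms and SRF genes on each of the 9 arrays, SKN left, Brain in the middle and Fibroblast right of each gene, with Brain 3 drawn apart; the short lines are group means. Most genes lie within 2 log2 units over all arrays, whereas FLNC, CAP2, MYOCD, TNS1, MYH10, PDLIM5, FHL1 and CNN3 span more.

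The widely expressed isoforms did not move as a block, as the plot of values for the other classes shows. The calponins CNN2 and CNN3, non-muscle relatives of CNN1, went in opposite directions. CNN2 read 8.88, 8.73 and 9.17 in SKN, 7.87, 7.31 and 7.26 in Brain, and 9.13, 9.06 and 8.95 in Fibroblast. CNN3 read 10.03, 9.94 and 9.93 in SKN, 10.94, 11.17 and 10.92 in Brain, and 9.52, 9.54 and 9.09 in Fibroblast. CNN2 was lower in Brain than in Fibroblast by -1.57 ± 0.18 (adjusted p = 0.000727), whereas CNN3 was higher by 1.63 ± 0.14 (adjusted p = 0.000192). Set against Brain, SKN was higher for CNN2 by 1.44 ± 0.18 (adjusted p = 0.00113) and lower for CNN3 by -1.04 ± 0.14 (adjusted p = 0.0017). These 4 calls were kept in every removal of 1 array.

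Among the non-muscle myosins, MYH10, heavy chain IIB, read 6.94, 6.15 and 6.85 in SKN, 6.00, 5.63 and 5.93 in Brain, and 8.70, 8.81 and 7.66 in Fibroblast. Fibroblast stood above both SKN and Brain, which were less than 1 log2 unit apart on average. MYH10 was lower in Brain than in Fibroblast by -2.54 ± 0.33 (adjusted p = 0.00113) and lower in SKN than in Fibroblast by -1.74 ± 0.33 (adjusted p = 0.0255). The call in SKN ended without SKN 1, 2 or 3 or Fibroblast 1 or 2 (adjusted p from 0.0542 to 0.0849). MYH9, heavy chain IIA, read 9.67, 9.81 and 9.86 in SKN, 9.50, 9.27 and 9.45 in Brain, and 10.32, 10.72 and 10.22 in Fibroblast, and was lower in Brain than in Fibroblast by -1.01 ± 0.15 (adjusted p = 0.00198).

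TPM4, a tropomyosin of non-muscle cells, read 11.22, 11.13 and 11.20 in SKN, 10.95, 10.58 and 10.53 in Brain, and 11.45, 11.42 and 11.66 in Fibroblast. Its Brain minus Fibroblast difference of -0.82 ± 0.13 (adjusted p = 0.00355) was several times smaller than that of TPM2. TPM4 was also higher in SKN than in Brain by 0.50 ± 0.13 (adjusted p = 0.0375). That call ended without SKN 1, 2 or 3, Brain 2, Brain 3 or Fibroblast 1 (adjusted p from 0.0567 to 0.12). Without Brain 3 the difference was 0.42 (adjusted p = 0.12). Under quantile normalization the call ended as well (adjusted p = 0.097). TAGLN2, the relative of TAGLN in most cells, read 9.76 to 10.14 in SKN, 9.44 to 9.62 in Brain and 9.68 to 9.91 in Fibroblast, with no comparison called. Over the 6 isoforms 4 were lower and 1 higher in Brain than in Fibroblast (83.3% called beside 27% of all named genes, median -0.92). In SKN minus Brain 2 were higher and 1 lower (50% beside 22.6%, median 0.45). In SKN minus Fibroblast 1 was lower and 0 higher (16.7% beside 4.55%, median -0.23). With 6 genes these shares are coarse.

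Of the 6 measured genes in the class of SRF, its cofactors and LIM protein partners, 4 were lower and 0 higher in Brain than in Fibroblast. The median was -0.87 log2 units, and 66.7% were called, beside 27% of all named genes. MRTFA and MRTFB are not in this class. They are described below with the other genes of the route from actin to SRF, where they ran in opposite directions. SRF itself read 7.66, 7.66 and 7.69 in SKN, 7.81, 7.27 and 7.15 in Brain, and 7.66, 8.20 and 7.80 in Fibroblast. The groups overlapped, and no difference was called, with -0.48 ± 0.20 in Brain minus Fibroblast (adjusted p = 0.13), 0.26 ± 0.20 in SKN minus Brain (adjusted p = 0.452) and -0.21 ± 0.20 in SKN minus Fibroblast (adjusted p = 0.644). MYOCD, myocardin, the SRF cofactor of smooth and cardiac muscle, was measured with a wider range. It read 5.95, 8.24 and 6.58 in SKN, 4.01, 4.52 and 4.19 in Brain, and 7.54, 7.32 and 7.38 in Fibroblast. All Brain arrays, Brain 3 included, lay below all others, and SKN spanned the Fibroblast values.

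MYOCD was lower in Brain than in Fibroblast by -3.18 ± 0.49 (adjusted p = 0.00276) and higher in SKN than in Brain by 2.69 ± 0.49 (adjusted p = 0.00691), and both calls held in every removal of 1 array, with SKN minus Brain at 2.03 without SKN 2. The SKN minus Fibroblast difference was -0.49 ± 0.49 (adjusted p = 0.673), though without SKN 2, the highest SKN array, it was -1.15 (adjusted p = 0.0463). FHL1, a protein of only LIM domains found in muscle, read 10.33, 10.47 and 10.96 in SKN, 8.60, 9.49 and 9.56 in Brain, and 11.15, 11.17 and 11.04 in Fibroblast. The 3 groups did not overlap for FHL1, which was lower in Brain than in Fibroblast by -1.90 ± 0.26 (adjusted p = 0.00161) and higher in SKN than in Brain by 1.37 ± 0.26 (adjusted p = 0.0085).

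TGFB1I1, also called Hic-5, a paxillin relative that works at adhesions and in the nucleus, read 10.18, 9.56 and 9.93 in SKN, 9.46, 8.93 and 9.49 in Brain, and 10.23, 10.32 and 10.15 in Fibroblast. It was lower in Brain than in Fibroblast by -0.94 ± 0.20 (adjusted p = 0.0111). CSRP1, a LIM protein that links SRF with its partner factors, read 10.60, 10.58 and 11.01 in SKN, 10.69, 10.70 and 11.06 in Brain, and 11.49, 11.65 and 11.74 in Fibroblast. SKN and Brain overlapped and both stood below Fibroblast, by -0.90 ± 0.16 in SKN (adjusted p = 0.0211) and by -0.81 ± 0.16 in Brain (adjusted p = 0.00842). The SKN call ended without SKN 1, SKN 2, Fibroblast 2 or Fibroblast 3 (adjusted p from 0.0645 to 0.0824). FHL2, a LIM-only SRF partner, read 7.74 to 8.80 in SKN, 8.22 to 8.70 in Brain and 9.02 to 9.28 in Fibroblast and was not called. Over the class 2 genes were higher in SKN than in Brain (33.3% called beside 22.6% of all named genes, median 0.43). In SKN minus Fibroblast 1 was lower (16.7% beside 4.55%, median -0.51). With 6 genes these shares are coarse.

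Brain 3 is given apart because it read many contractile genes well above Brain 1 and Brain 2. Set against the mean of Brain 1 and Brain 2, Brain 3 was higher by 5.57 log2 units for ACTA2, 4.99 for ACTG2, 4.46 for TPM2, 3.27 for CNN1 and 2.14 for TAGLN. The next 5 were TPM1 (1.67), CAP2 (1.58), CALD1 (1.43), MYLK (1.41) and TNS1 (1.26), and for TAGLN and CAP2 1 array of the other pair was close to Brain 3. Over 1 log2 unit stood 8 of 15 smooth muscle genes (53.3%), 2 of 15 adhesion genes and 0 of the isoforms and SRF genes, beside 228 of the 15947 named genes (1.43%). The median shift was 1.41 log2 units over the smooth muscle genes, 0.15 over the adhesion genes, -0.04 over the isoforms, 0.11 over the SRF genes and 0.00 over all named genes. These are differences of 1 array from a pair and carry no test.

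**Figure D5:**
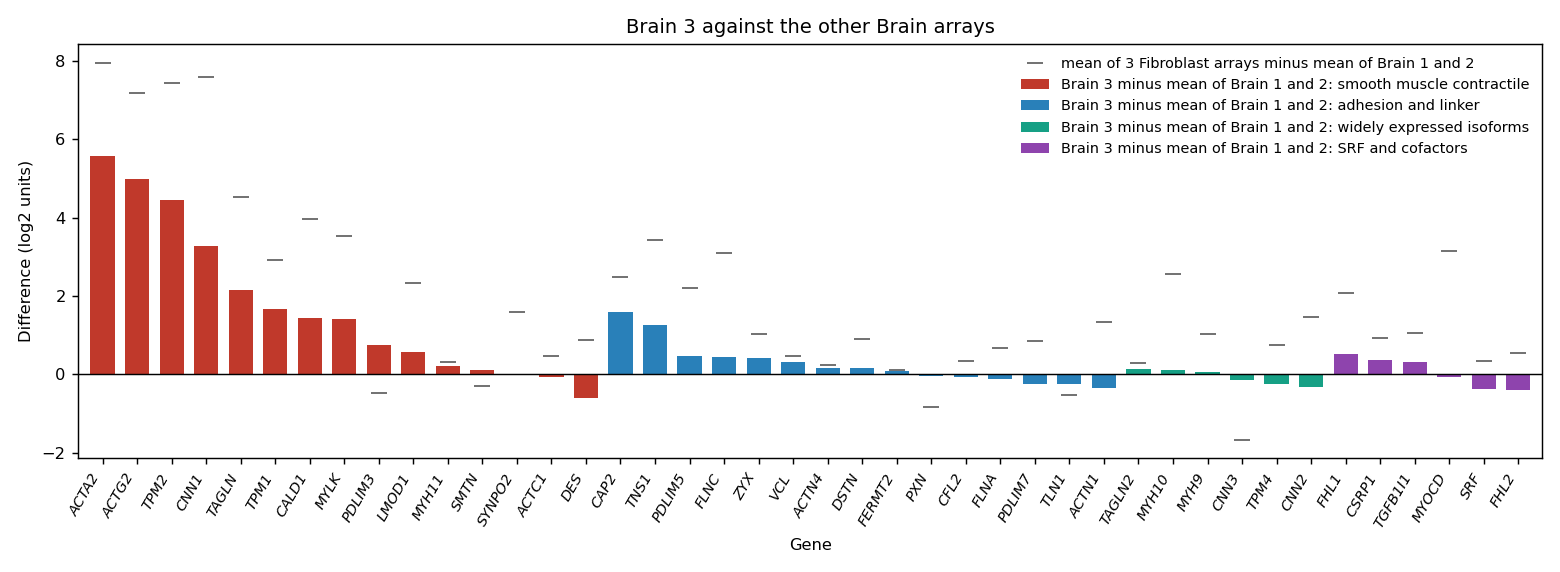
Brain 3 minus the mean of Brain 1 and Brain 2, in log2 units, for each of the 42 genes by class; each bar is 1 gene, and each short line is the mean of the 3 Fibroblast arrays minus the same Brain mean. The 5 highest bars, from 2.14 to 5.57, are all smooth muscle contractile genes, and MYOCD and SRF lie close to or below 0.

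The plot of Brain 3 against the other Brain arrays was read beside the Fibroblast level. On the log2 scale Brain 3 covered 70.0% of the gap from Brain 1 and Brain 2 to Fibroblast for ACTA2, 69.6% for ACTG2, 60.1% for TPM2, 57.2% for TPM1, 47.3% for TAGLN, 43.1% for CNN1, 39.8% for MYLK, 36.0% for CALD1 and 24.0% for LMOD1. For SYNPO2, the other smooth muscle gene with a gap over 1 log2 unit, it was -1.4%. The regulator MYOCD covered -2.3%, reading 4.19 in Brain 3 between 4.01 in Brain 1 and 4.52 in Brain 2. SRF read 7.15 in Brain 3, the lowest of the 9 arrays, and MYH11 3.80.

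Markers of other cell types moved in Brain 3 as well. Of 9 measured pericyte and mural cell markers, Brain 3 was the highest Brain array for 6, with 3 above the mean of the other pair by more than 1 log2 unit, and the list mean was 5.55 in Brain 3, 4.55 in Brain 1 and 4.77 in Brain 2. RGS5, a pericyte marker, read 6.07 in Brain 3, 2.88 and 2.60 in Brain 1 and Brain 2, and 2.22 to 3.13 in the SKN and Fibroblast arrays. Of 11 fibroblast markers, Brain 3 was highest for 8, with 5 above by more than 1 log2 unit, and the list mean was 5.53 in Brain 3, 4.16 in Brain 1 and 4.09 in Brain 2. LUM, lumican, read 6.44 in Brain 3 and 2.26 and 2.93 in the other Brain arrays, and COL1A1, collagen I, 8.25 and 5.28 and 5.13, whereas POSTN read 3.05, FAP 3.13 and MFAP5 2.85 in Brain 3, near their Brain 1 and Brain 2 values. Of 8 neural precursor markers Brain 3 was the lowest Brain array for 4 and the highest for 2, with a list mean of 4.63 in Brain 3, against 4.93 and 4.87. Among them SOX2, a precursor factor, read 5.34 in Brain 3 and 7.36 and 7.16 in the other Brain arrays, and NES 7.96, against 8.73 and 8.31. The mean of the Schwann cell and neural crest list was 8.57 in Brain 3, against 8.24 and 8.57, and Brain 3 was highest for 4 of its 7 markers. The skeletal muscle list mean was 3.77 in Brain 3, against 3.87 and 3.83. The part of these cell types in the contractile values of Brain 3 was not tested.

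Arrays also differed within SKN. SKN 3 was the highest SKN array for 25 of the 42 genes and SKN 1 the lowest for 24, among them 10 of the 15 smooth muscle genes. Such ranks were not counted over all named genes, whose mean was 5.61, 5.6 and 5.6 in SKN 1 to 3. CNN1 spanned 7.72 to 9.85 log2 units in SKN and 11.83 to 11.98 in Fibroblast. ABCC9, a channel subunit of pericytes, read 7.98 in SKN 1, 5.52 in SKN 2 and 6.04 in SKN 3, and PDGFRA, a fibroblast receptor, read 9.28, 8.19 and 8.36. The marker lists as a whole were mixed, with SKN 1 highest for 4 and lowest for 2 of the 9 pericyte and mural markers, and highest for 5 and lowest for 3 of the 11 fibroblast markers. Their part in the contractile values was not tested. A muscle gene outside the group, ACTN2, sarcomeric α-actinin, read 3.51 to 3.91 in SKN and 5.69 to 6.18 in Fibroblast (-2.27 ± 0.21, adjusted p = 0.00113), while the myogenic factors MYOD1, MYOG, MYF5 and PAX7 lay between 2.77 and 4.67 on all 9 arrays.

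Of 38 other genes on the route from actin to SRF 34 were measured, and they showed no common direction. In Brain minus Fibroblast 4 were higher and 8 lower (35.3% called, median -0.09 log2 units), in SKN minus Brain 5 higher and 2 lower (20.6%, median -0.02), and in SKN minus Fibroblast 2 higher and 4 lower (17.6%, median -0.06). Over all named genes the shares called were 27%, 22.6% and 4.55%, so the SKN minus Brain count lay near the background. The cytoplasmic actins ACTB and ACTG1 read 12.14 to 12.61 and 12.32 to 12.57 over the 9 arrays, and no comparison of either was called.

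The 2 myocardin-related factors ran in opposite directions. MRTFA read 7.05, 7.31 and 7.31 in SKN, 6.99, 7.12 and 7.12 in Brain, and 7.82, 7.80 and 7.82 in Fibroblast. MRTFB read 7.30, 7.16 and 7.32 in SKN, 7.34, 7.84 and 7.78 in Brain, and 6.51, 6.41 and 6.72 in Fibroblast. In SKN, MRTFA was lower than in Fibroblast by -0.58 ± 0.10 (adjusted p = 0.022) and MRTFB higher by 0.72 ± 0.15 (adjusted p = 0.0447), calls that were kept in 4 and in 1 of the 9 removals, that of MRTFB being lost without Brain 3 (adjusted p = 0.065). In Brain, MRTFA was lower than in Fibroblast by -0.73 ± 0.10 (adjusted p = 0.00185) and MRTFB higher by 1.11 ± 0.15 (adjusted p = 0.00162), both in every removal. ELK3, an SRF partner of the ETS family, was higher than in Fibroblast in Brain by 1.63 ± 0.21 (adjusted p = 0.00115) and in SKN by 0.98 ± 0.21 (adjusted p = 0.0446), the SKN call being kept in 1 of the 9 removals and lost without Brain 3 (adjusted p = 0.0746).

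Genes of actin and myosin supply differed as well. PFN2, a profilin that feeds actin monomers to filaments, read 7.47, 7.89 and 7.87 in SKN, 7.28, 6.88 and 7.00 in Brain, and 8.81, 8.93 and 9.24 in Fibroblast. PFN2 was lower in Brain than in Fibroblast by -1.94 ± 0.17 (adjusted p = 0.000198), lower in SKN than in Fibroblast by -1.25 ± 0.17 (adjusted p = 0.00807) and higher in SKN than in Brain by 0.69 ± 0.17 (adjusted p = 0.0274, kept in 5 of the 9 removals, 0.0822 without Brain 3). MYL12B, a non-muscle regulatory light chain, was lower than in Fibroblast in Brain by -1.07 ± 0.09 (adjusted p = 0.000143) and in SKN by -0.59 ± 0.09 (adjusted p = 0.0108). ACTA1, skeletal α-actin, was lower in Brain than in Fibroblast by -2.54 ± 0.44 (adjusted p = 0.0048).

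PPP1R12A, the targeting subunit of myosin phosphatase, read 8.38, 8.57 and 8.67 in SKN, 9.44, 9.83 and 9.88 in Brain, and 9.21, 9.25 and 9.35 in Fibroblast. It was lower in SKN than in Brain by -1.17 ± 0.14 (adjusted p = 0.000824) and lower in SKN than in Fibroblast by -0.73 ± 0.14 (adjusted p = 0.0293, kept in 3 of the 9 removals). Its relative PPP1R12B was lower in SKN than in Brain by -0.85 ± 0.13 (adjusted p = 0.00299). KLF4, a repressor of smooth muscle genes, was higher in SKN than in Brain by 1.62 ± 0.40 (adjusted p = 0.0254, kept in 5 of the 9 removals, and 1.32 with adjusted p = 0.0794 without Brain 3), and TEAD3, a Hippo pathway factor, by 0.84 ± 0.18 (adjusted p = 0.0146, kept in 8). LIMK2, the kinase that inactivates cofilin, was higher in SKN than in Brain by 0.56 ± 0.13 (adjusted p = 0.0177, kept in 5, 0.0534 without Brain 3).

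Of the called members, 25 of 28 in Brain minus Fibroblast, 9 of 17 in SKN minus Brain and 0 of 7 in SKN minus Fibroblast kept their call in each removal of 1 array. The count in SKN minus Fibroblast was 0 without Fibroblast 2, where 19 genes had an unadjusted p under 0.05, and 11 without Brain 3.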

How the data were processed

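RNA from dog cell cultures was measured on 9 Affymetrix arrays. The authors deposited 1 table of 32205 probe sets with values taken as log2 signals, since the range of 0.561 to 13.47 and the similar array medians fit that scale and the base is not written. Per the submitters' processing notes MAS5, RMA and Partek were used, and their role, order and versions are not given in the sources used here. The values were used as deposited, with no filter on level. Of the probe sets 16545 carried 1 symbol, 370 several and 15290 had no entry. Each of the 15947 named genes was represented by its probe set of highest mean. The platform annotation gave the names, and 40 of the 42 members matched the dog RefSeq table of build UU_Cfam_GSD_1.0, with 0 differing symbols.

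The model, fitted with limma 3.58.1 in R 4.3.3 over the 9 arrays together, had 1 coefficient for each group, with 6 residual and 2.41 prior degrees of freedom. Benjamini-Hochberg adjustment of the 2-sided p-values covered every probe set, and genes with an adjusted p under 0.05 were called. Differences carry the SE of the fit for 3 arrays against 3, and 1 log2 unit is 2-fold. The fit was tested on simulated data with known changes and noise independent between probe sets. It called 56 of 100 changes of 2-fold and 95 of 100 changes of 4-fold, with 14 false calls. A gene that was not called may thus still differ by 2-fold. For arrays, their number limits the precision. Levels of different probe sets were not compared by any test, and words such as low or near the top only place a reading within the array's range. No 2 arrays were identical.

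The members, classes and lists were chosen with earlier results of these data known. Genes described with every array are, per comparison and class, up to 5 higher and 5 lower called genes whose groups do not overlap, with ACTA2, TAGLN, CNN1, MYH11, LMOD1, DES, MYOCD and SRF always described (MYL9, also on that list, had no value of its own). The 10 largest shifts of Brain 3 and up to 6 called pathway genes per comparison were named, except for items that are not reported here. The alternatives, 19 in all, changed the scaling, the filter, the variance model, the arrays in the fit, the probe set rule and the replicate block.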

Additional observations from a re-analysis of the deposited data

How the results depend on the processing

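The 52 called member results were recomputed under 19 alternatives, giving 987 values, of which 824 stayed on the same side of the threshold, 163 lost their call and 0 changed direction. The member count in Brain minus Fibroblast, 28, was 25 to 29 over the removals of 1 array, 28 with the replicate block, 24 without variance moderation and 21 without Fibroblast 1 and Brain 3 together. With probe sets under the median of the means left out it was 30. In SKN minus Brain the count of 17 was 9 without variance moderation and 10 with the fit restricted to the compared groups, and 9 to 14 over the removals. It was 21 with probe sets under the median of the means left out, 20 with array weights and 18 with trended, robust moderation. In SKN minus Fibroblast the count of 7, all lower, was 13 (2 higher, 11 lower) with probe sets under the median of the means left out. It was 1 (lower) without moderation and 3 (all lower, 2 of them among the 7) with the replicate block. Without Fibroblast 1 and Brain 3 together the count was 1, a gene called higher, and 0 of the 7 lower calls were kept. Over the removals the count was 0 to 11, with 1 gene called higher without SKN 2 and 1 without Fibroblast 1. Over all named genes, leaving out Fibroblast 1 and Brain 3 together gave 2314 calls in SKN minus Brain (3608 with all arrays), 341 in SKN minus Fibroblast (726) and 2425 in Brain minus Fibroblast (4308), where fewer arrays entered the fit. The removals of 1 array gave 2461 to 3399, 340 to 750 and 3180 to 4160, and no moderation gave 328 in SKN minus Fibroblast. The causes were not tested otherwise.

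Whether arrays with the same replicate number share a dog or culture is not stated, and correlations over 3 arrays per group cannot settle it. Between SKN and Fibroblast the same-numbered pairs correlated at 0.145, 0.045 and 0.048, and the other pairs of these groups at -0.144 to 0.096. Deviations from the group means of same-numbered arrays correlated at -0.045 to 0.145, with 1 of 9 pairs over 0.1, and 2 of 9 arrays correlated best with their own number. With the number as a block 15 members were called in SKN minus Brain, and over all named genes 3392, 562 and 3941 in SKN minus Brain, SKN minus Fibroblast and Brain minus Fibroblast.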
